A study of Mus musculus with 9 samples.

Results

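The heterogeneous nuclear ribonucleoprotein (hnRNP) genes and the serine/arginine-rich splicing factor (SR) genes were followed in mouse kidney after cisplatin. The set holds every protein-coding gene whose symbol starts with Hnrnp or with Srsf and a number, which gave 31 genes, 20 Hnrnp and 11 Srsf, of the 55385 gene IDs in the files. The genes were chosen by symbol, with the rise of the family known, and Hnrnpa3 was selected on its own FPKM values in these 9 libraries, which differed from those of its relatives, so its levels are described and not tested. All mice were C57BL/6, with no genetic change named, and whole kidney was sequenced in bulk. The sham group (n = 3) had an intraperitoneal injection of saline, and the other groups had 20 mg/kg of cisplatin, a platinum compound that forms DNA crosslinks and is toxic to tubule cells, by the same route and were taken after 3 days (n = 3) or 7 days (n = 3). The labels call the libraries biological repeats but do not say when the sham mice were taken, and give no age or sex. The comparisons address how kidney RNA at an early time after cisplatin compares with that at a late one. Values are FPKM, sequenced fragments normalised for transcript length and for library size, and fold changes are on the scale of log2(FPKM + 1), which understates the change of low genes.

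Proteins of both families bind precursor mRNA while it is transcribed. SR proteins carry 1 or more RNA recognition motifs and a domain rich in arginine and serine that is phosphorylated, and they mostly help the spliceosome to use nearby splice sites from exonic enhancers. The hnRNP proteins coat nuclear RNA, and many of them, such as the A and B group, oppose SR proteins at exons and also act in RNA export, stability and translation. Many genes of both families limit their own protein through an alternative exon that sends the transcript to nonsense-mediated decay, and gene-level FPKM does not separate such transcripts from coding ones.

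Of the 31 genes, 30 reached 1 FPKM in 3 or more of the 9 libraries, the filter for testing. Srsf12, an SR gene of restricted expression, did not pass, and its values lay between 0 and 0.34 FPKM. The 29 tested genes other than Hnrnpa3 were at 1 FPKM or more in all 9 libraries, while Hnrnpa3 reached 1 FPKM in the 6 cisplatin libraries and in no sham library. Group means in sham spanned 1.31 FPKM (Hnrnpr) to 56.8 FPKM (Hnrnpab). The summed FPKM of the 31 genes was 563.5, 503.49 and 448.02 in the sham libraries, 991.16, 959.9 and 917.1 on day 3, and on day 7 it was 736.76, 839.53 and 689.21. The groups did not overlap on that sum, which was highest at day 3 and intermediate at day 7. The second day 7 library had the highest sum of its group, and it also stood apart from the other day 7 libraries in markers. Havcr1, the tubule injury gene, was 58.22 FPKM there against 1.04 and 1.45, C1qa, a macrophage gene, 23.29 against 7.58 and 7.29, Col3a1, a fibroblast gene, 11.89 against 2.81 and 2.96, and Mki67, a proliferation gene, 2.75 against 0.5 and 0.43. These 4 genes were picked after their values were seen, and the count of genes higher at day 7 is given with and without that library. The first sham library also had the highest sum of its group. Its proximal tubule markers other than Kap, read below, summed to 1742.78 FPKM against 2949.77 and 2932.75. Without that sham library 20 genes were higher at day 7, against 18.0% of all tested genes. Havcr1 was highest among sham libraries in the second (35.45 FPKM against 8.29 and 1.5). Without the second sham library 11 genes were higher at day 7, against 12.4% of all tested genes, and without the third 12, against 16.5%. The part of these differences in the day 7 values was not tested. In bulk tissue, more RNA per cell and a larger share of cells that express a gene cannot be told apart.

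At day 3, 23 of the 29 genes were higher than in sham and 0 were lower at an adjusted p below 0.05 (limma), against 39.3% of the 13718 tested genes higher and 20.6% lower. Their median log2 fold change was 0.82, with a range of 0.01 to 1.64, and the median over all tested genes was 0.25. All 29 changes lay above 0, and in 24 genes every day 3 library was above every sham library, which held for 42.1% of all tested genes. The hnRNP genes gave 16 of 19 higher (median 0.82) and the SR genes 7 of 10 (median 0.78). The 6 genes that did not pass were Hnrnph3, Hnrnpl, Hnrnpul1, Srsf4, Srsf6 and Srsf9. Median-of-ratios scaling moved the median of all genes to -0.01 and their calls from 65.6% higher to 48.6%. It left 20 of the 29 genes higher with a median of 0.52, against 28.2% of all tested genes. Hnrnpl, Hnrnpul1, Srsf4, Srsf6 and Srsf9 then had changes below 0 that did not pass. After trends with GC content and length were removed, 25 genes were higher, with a median of 0.52, against 38.3% of all tested genes. Quantile normalization, with 51.2% of all calls higher, gave 23 higher genes with a median of 0.64, against 29.9% of all tested genes. The changes of Hnrnpul1 and Srsf4 then lay below 0.

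At day 7, 16 of the 29 genes were higher than in sham and 0 lower, against 19.3% of all tested genes higher and 10.4% lower. The median was 0.50 for the 29 genes and 0.06 for all tested genes. In 20 of the 29 genes the day 7 libraries all lay above the sham libraries, against 29.5% of all tested genes, and in 1, Srsf4, they all lay below, against 19.1%. The hnRNP genes gave 11 of 19 and the SR genes 5 of 10. Calls over all genes were 64.9% higher, 47.3% after median-of-ratios scaling and 52.7% after quantile normalization, and the count of higher genes in the set was 15 and 19 under these scalings, against 15.4% and 16.4% of all tested genes. Transcripts of mitochondrial DNA took 25.6% to 27.3% of all FPKM in sham, 27.1% to 31.8% on day 3 and 31.7% to 32.6% on day 7, and rescaling without them gave 25 higher genes at day 7, against 26.6% of all tested genes, with 84.8% of all calls higher. The day 7 count was 9 without the second day 7 library, where 12.3% of all tested genes were higher. After trends with GC content and length were removed it was 5, where 4.26% of all tested genes were higher, and the median of the set was then 0.22. Of the 16 genes, Hnrnpa2b1, Hnrnpab, Hnrnpm and Hnrnpu were still called after that removal. The other gene of the 5, Hnrnpa0, was not among the 16. The median GC content of the transcripts was 43.6% for the set and 49.8% for all tested genes.

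From day 3 to day 7, 0 of the 29 genes rose and 12 fell, against 21.7% and 33.7% of all tested genes. The median difference was -0.29 for the set and -0.16 for all tested genes. In 15 genes every day 7 library lay below every day 3 library, which held for 39.2% of all tested genes, so the share of genes that fell was not far from the background. Without the third day 7 library, 6 genes fell, against 26.9% of all tested genes. Median-of-ratios scaling gave 6 lower and 3 higher genes (Hnrnpa2b1, Hnrnpr and Srsf10), against 26.5% and 27.6% of all tested genes. Quantile normalization gave 8 lower and 2 higher genes (Hnrnpr and Srsf10), against 28.0% and 27.8%. Of all calls, 51.0% and 49.8% were higher under these scalings, against 39.2% before them. Both comparisons with cisplatin share the 3 sham libraries, so their changes in a gene are not independent.

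**Figure D1:**
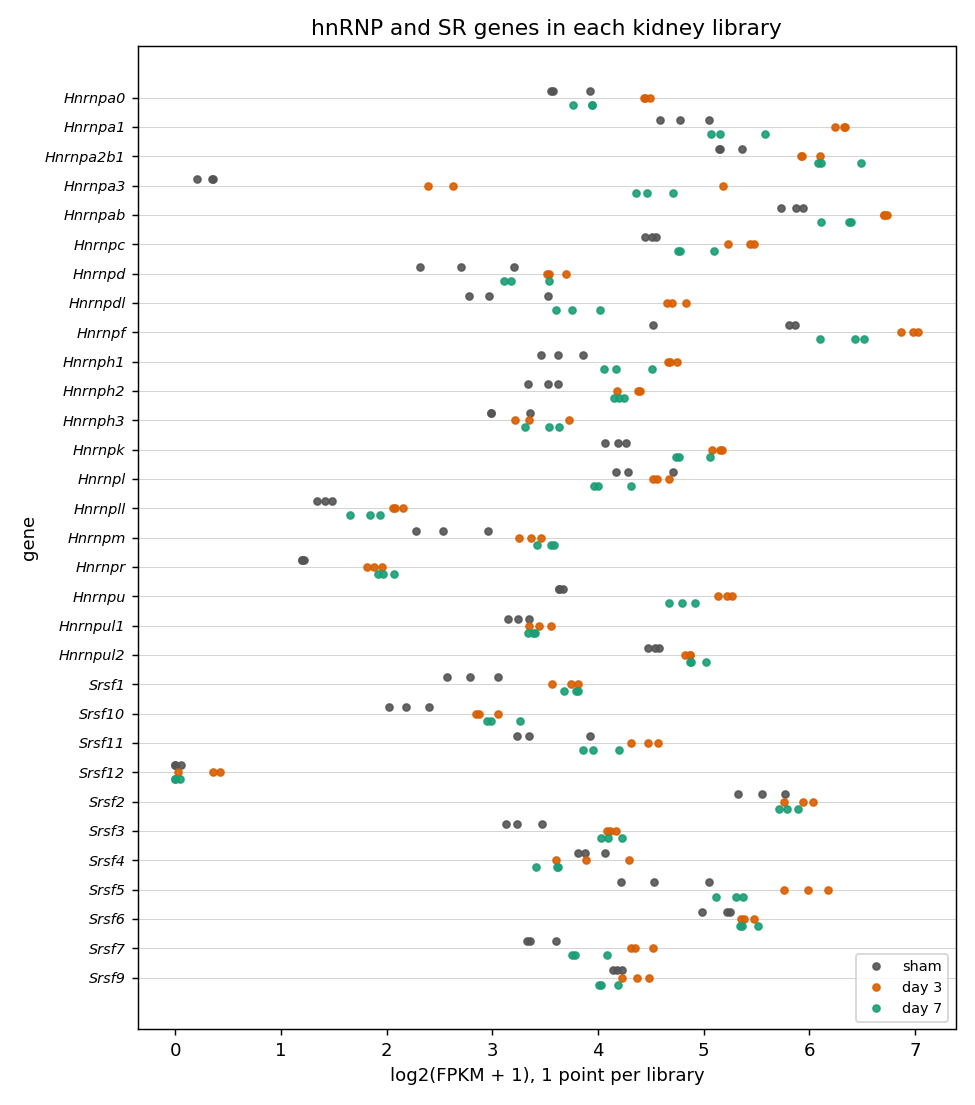
Level of each hnRNP and SR gene as log2(FPKM + 1), with 1 point per library (3 sham, 3 at day 3, 3 at day 7). Most genes are highest at day 3, Hnrnpa3 is near 0 in the 3 sham libraries (0.15 to 0.28 FPKM), and Srsf12 is near 0 throughout.

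The kidney markers set the tissue beside these values. In sham the proximal tubule list summed to 30200 to 38600 FPKM, of which Kap alone, a kidney androgen-regulated transcript, held 28500 to 35600, and the other 10 markers summed to 1740 to 2950 FPKM, so that markers of the labelled tissue were present. At day 3 all 11 proximal tubule, 6 of 6 thick ascending limb and 8 of 10 distal and collecting duct markers fell, the proximal tubule sum without Kap spanned 109 to 312 FPKM, and all 6 tubule injury markers rose. At day 7 the proximal sum without Kap was 1780 to 2110 FPKM. The neutrophil list summed to 2.74 to 14.5 FPKM in sham, 29.3 to 105 on day 3 and 4.73 to 22.7 at day 7. It rested on S100a8, S100a9 and Retnlg, the 3 of 10 markers that passed the filter, all of which rose at day 3, while 5 of 10, among them Ly6g, Mpo and Elane, stayed below 1 FPKM in every library. Of 8 tested macrophage and monocyte markers 1 rose and 4 fell at day 3, with a sum of 85.4 to 96.1 FPKM in sham, 133 to 201 on day 3 and 44.5 to 130 at day 7. The marker that rose was Cd68 (3.75 to 5.05, 86.7 to 114 and 1.56 to 4.1 FPKM), without which the sum was 81.0 to 92.4, 37.6 to 98.1 and 42.9 to 126 FPKM. The 8 proliferation markers summed to 9.56 to 17.1, 35.7 to 47.7 and 16.1 to 28.6 FPKM, of which Pcna alone was 8.23 to 13.7, 31.5 to 43.7 and 13.9 to 17.8. Among the others, 2 of 8 fibroblast markers rose at day 3, 4 of 4 tested red cell markers, 2 of 6 podocyte and 2 of 7 endothelial markers fell, and the only lymphocyte marker tested fell. The part of these shifts in the hnRNP and SR values was not tested.

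Hnrnpa3 encodes an hnRNP of the A group that binds RNA through a pair of recognition motifs and is known for its part in cytoplasmic RNA trafficking. Its gene (ENSMUSG00000059005) lies at chr2:75659261-75669407 on the plus strand of GRCm38. Sham libraries held it at 0.28, 0.27 and 0.15 FPKM, and it stood at 35.41, 5.18 and 4.26 FPKM at day 3 and at 21.14, 25.12 and 19.53 FPKM at day 7. The first day 3 library was far above the other day 3 libraries and above every day 7 library, while the other day 3 libraries lay between sham and day 7. Against the mean log2(FPKM + 1) of the 19 other hnRNP genes in the same library, Hnrnpa3 was -3.49, -3.36 and -3.42 in sham, 0.57, -1.95 and -2.17 on day 3 and 0.24, 0.28 and 0.18 at day 7. The value at this locus thus stood below its family's mean in sham and close to it at day 7. The mean of this difference was -3.42 ± 0.07 in sham, -1.18 ± 1.52 at day 3 and 0.23 ± 0.05 at day 7 (SD, n = 3), and the shift from sham to day 3 was 2.24, or 1.36 without the first day 3 library. Summed with the loci of nearly the same sequence described below, Hnrnpa3 stood above its family's mean in every library. The means of that difference were 2.30 in sham, 3.09 at day 3 and 2.95 at day 7, with the other genes not summed.

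The low sham values of Hnrnpa3 stood beside high values at other loci of nearly the same sequence. A search of the annotated transcripts found 27 other loci with at least 95% identity to Hnrnpa3 over at least 300 nt, of which 10 reached 1 FPKM in some library. The most abundant was Gm6793 (chr8:112013433-112015036, minus strand, annotated as protein coding), 98.3% identical, and the next were the processed pseudogenes Gm12960 (99.2%) and Gm11847 (98.0%) on chromosome 4. Gm5641 (chr3:54481438-54482925, plus strand), a transcribed processed pseudogene, was identical over all of its 1488 nt. A processed pseudogene is an intronless copy made from an mRNA, so that a read within 1 exon can match the parent and the copy alike. Over the 1074 nt of Hnrnpa3 coding sequence, Gm6793 had 6 substitutions in 1056 aligned nt, Gm12960 had 4 in 1066, and Gm11847 and Gm5641 had 0 in 1051 and 1074. The stretch below, coding positions 277 to 396 in exon 4 of 11 (chr2:75661896-75662015, plus strand), shows how little separates them. It is the same in Gm6793, Gm11847 and Gm5641, and the capital in Gm12960 (chr4:111808032-111808151, minus strand) marks the only base that differs. The sequences are those of GENCODE M21 transcripts on GRCm38, read 5′ to 3′.
Hnrnpa3: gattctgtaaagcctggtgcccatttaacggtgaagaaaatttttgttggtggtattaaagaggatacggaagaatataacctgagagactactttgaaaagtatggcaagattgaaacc
Gm12960: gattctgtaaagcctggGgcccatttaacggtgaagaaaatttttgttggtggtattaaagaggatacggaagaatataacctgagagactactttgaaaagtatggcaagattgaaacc

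These copies carried most of the signal in every library. Gm6793 stood at 21.62, 25.17 and 27.58 FPKM in sham, 82.06, 68.09 and 62.93 FPKM at day 3 and 39.8, 51.07 and 41.34 FPKM at day 7. The copies together summed to 52.34, 64.68 and 76.27 FPKM in sham, 222.69, 178.37 and 173.11 FPKM at day 3 and 109.26, 148.43 and 127.65 FPKM at day 7. The groups did not overlap on the copies' sum, and unlike Hnrnpa3 alone the copies were highest at day 3 in all 3 libraries. The Hnrnpa3 locus held 0.53%, 0.42% and 0.2% of the sum of gene and copies in sham, 13.7%, 2.82% and 2.4% on day 3 and 16.2%, 14.5% and 13.3% at day 7. Gene and copies summed to 64.7 ± 11.9 FPKM in sham, 206 ± 44.9 at day 3 and 150 ± 21.8 at day 7 (SD, n = 3), which are ratios of 3.19 and 2.33 to sham, where Hnrnpa3 alone gave 64.1 and 94.0. Without the first day 3 library its own day 3 ratio was 20.2. On the log2 scale the summed value was 1.65 higher at day 3 than in sham. With every gene of the set summed with its copies, Hnrnpa3 gained 0.83 on the other hnRNP genes from sham to day 3 and 0.68 from sham to day 7, and from day 3 to day 7 its relative change was -0.15, against 1.42 without the copies. How reads that match several loci were counted is not stated by the labels or file headers. The share of the RNA that came from the Hnrnpa3 gene itself was not determined. FPKM of loci of different length were added, so the sums are not levels of 1 transcript.

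**Figure D2:**
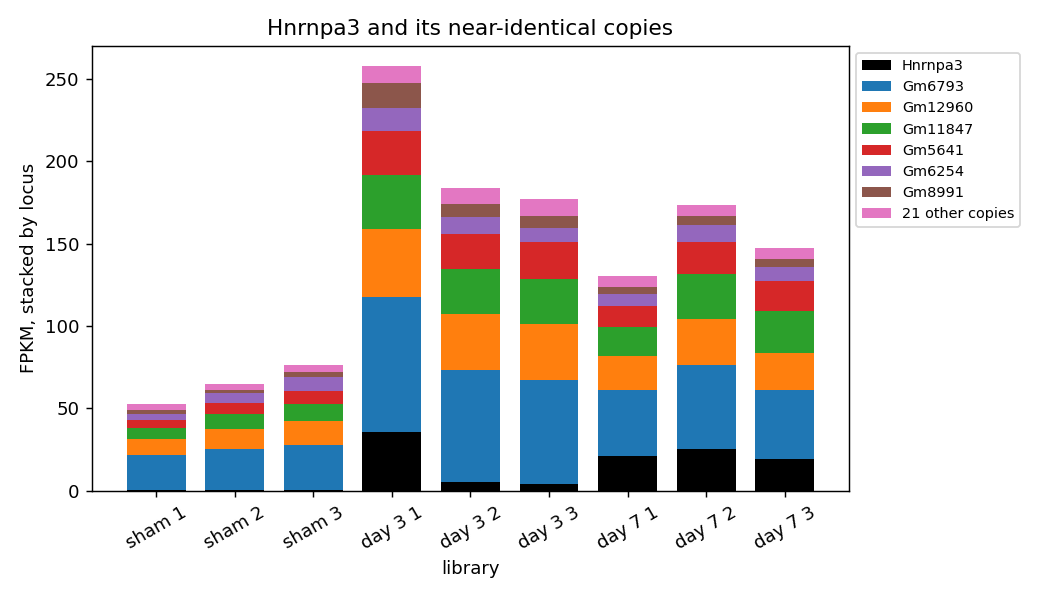
FPKM of Hnrnpa3 and of its near-identical copies in each of the 9 libraries, stacked by locus. Hnrnpa3 (black) is below 0.3 FPKM in sham and 4.26 to 35.41 FPKM after cisplatin, while the stack is 52.62 to 76.42 FPKM in sham and 130.4 to 258.1 FPKM after cisplatin.

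Hnrnpa1, Hnrnpa2b1 and Hnrnpa0 encode the other hnRNPs of the A and B group, which silence exons and bind AU-rich and UAG-containing RNA. Hnrnpa1 stood at 32.27, 26.41 and 23.07 FPKM in sham, 79.72, 79.27 and 74.79 FPKM at day 3 and 34.77, 46.78 and 32.53 FPKM at day 7. The day 3 libraries were the highest without overlap, and day 7 lay just above sham. Its log2 fold change was 1.50 (SE 0.17, adjusted p = 9.95e-05) at day 3 and 0.46 (SE 0.17, adjusted p = 0.0645) at day 7, and from day 3 to day 7 it fell by 1.03 (SE 0.17, adjusted p = 0.00083). Its copy Gm10052, identical over 752 nt, stood at 4.19 FPKM in sham, 16.0 at day 3 and 9.64 at day 7 on average, and gene plus copies changed by 1.55, 0.56 and -0.99 in the same comparisons. The day 7 difference from sham passed the test on that sum (adjusted p = 0.0446), without the first sham library (adjusted p = 0.0344), under quantile normalization (adjusted p = 0.0337) and after rescaling without mitochondrial transcripts (adjusted p = 0.0194). After GC content and length trends were removed it was 0.13 and did not pass (adjusted p = 0.688).

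Hnrnpa2b1, also a carrier of RNA along microtubules, stood at 34.64, 34.42 and 40.15 FPKM in sham, 67.67, 59.67 and 60.03 FPKM at day 3 and 66.75, 88.82 and 68.03 FPKM at day 7. The 6 cisplatin libraries lay above sham, and the cisplatin groups overlapped. The rise was 0.76 (SE 0.14, adjusted p = 0.00136) at day 3 and 1.01 (SE 0.14, adjusted p = 0.00198) at day 7, with a difference of 0.24 between the days that did not pass the test (adjusted p = 0.165). After GC content and length trends were removed the rises were 0.50 and 0.61 (adjusted p = 0.00826 and 0.0303). Hnrnpa0 stood at 14.18, 10.92 and 10.79 FPKM in sham, 21.47, 20.79 and 20.72 FPKM at day 3 and 14.4, 14.44 and 12.6 FPKM at day 7. Day 3 stood apart and day 7 overlapped with sham. It rose by 0.77 at day 3 (SE 0.12, adjusted p = 0.000736) and fell by 0.57 from day 3 to day 7 (SE 0.12, adjusted p = 0.00413). Its day 7 change from sham was 0.20 and did not pass (adjusted p = 0.255). That change passed after GC content and length trends were removed (0.53, adjusted p = 0.0364) and after rescaling without mitochondrial transcripts (0.40, adjusted p = 0.0468). Of the A and B genes, Hnrnpa2b1 was therefore at its highest mean at day 7 (74.5 ± 12.4 FPKM, SD, n = 3), whereas Hnrnpa1 and Hnrnpa0 were at their highest at day 3 (77.9 ± 2.73 and 21.0 ± 0.41 FPKM).

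Hnrnpd, Hnrnpdl and Hnrnpab form the group around AUF1, the product of Hnrnpd, which binds AU-rich elements and governs mRNA decay. Hnrnpdl, whose product is close to AUF1, stood at 10.5, 6.83 and 5.89 FPKM in sham, 27.47, 24.95 and 24.19 FPKM at day 3 and 12.53, 15.27 and 11.19 FPKM at day 7. No group overlapped with another. It had the greatest fold change of the 29 genes at day 3, 1.64 (SE 0.20, adjusted p = 0.000146), was 0.70 above sham at day 7 (SE 0.20, adjusted p = 0.0265) and fell by 0.93 between the days (SE 0.20, adjusted p = 0.00344). The day 7 call against sham was lost without the second or the third sham library or the first or second day 7 library (adjusted p = 0.0644 to 0.0893) and after GC content and length trends were removed (0.53, adjusted p = 0.146). Hnrnpd stood at 8.2, 5.51 and 3.98 FPKM in sham, 11.94, 10.64 and 10.43 FPKM at day 3 and 8.03, 10.6 and 7.65 FPKM at day 7. Day 3 lay above sham, and day 7 overlapped with both. Its rise was 0.84 at day 3 (SE 0.22, adjusted p = 0.0088) and its day 7 change was 0.53 (adjusted p = 0.0951), and the day 3 call was lost after GC content and length trends were removed (0.45, adjusted p = 0.118).

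Hnrnpab had the highest sham level of the set, 60.48, 57.69 and 52.12 FPKM, and stood at 103.82, 105.38 and 103.92 FPKM at day 3 and 82.14, 83.26 and 68.1 FPKM at day 7. The 3 groups were apart in the order sham, day 7, day 3. Its changes were 0.87 at day 3 (SE 0.11, adjusted p = 0.000237), 0.45 at day 7 (SE 0.11, adjusted p = 0.0194) and -0.42 between the days (SE 0.11, adjusted p = 0.0117). The day 7 call was lost without the second or the third sham library or the first or second day 7 library (adjusted p = 0.0513 to 0.0742), and the call between the days without the third day 7 library (adjusted p = 0.0516) and under median-of-ratios scaling (-0.24, adjusted p = 0.0748).

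Hnrnpf, Hnrnph1, Hnrnph2 and Hnrnph3 encode the hnRNPs that bind runs of guanine. Hnrnpf stood at 55.0, 57.36 and 21.91 FPKM in sham, 115.88, 130.02 and 125.59 FPKM at day 3 and 85.18, 90.47 and 67.9 FPKM at day 7. The groups did not overlap, but the third sham library was far below the other sham libraries. The rise at day 3 was 1.57 (SE 0.32, adjusted p = 0.00288), and the day 7 change of 0.95 (SE 0.32) had an adjusted p of 0.0545. Without the third sham library the day 7 change was 0.51 and passed (adjusted p = 0.0357). It also passed without the first or the second sham library (adjusted p = 0.0434 and 0.0468) and with the replicate block (adjusted p = 0.0394). After GC content and length trends were removed it did not pass (adjusted p = 0.117). In the third sham library the copies of Hnrnpf were at their highest among sham libraries. The 8 copies summed to 2.65, 20.18 and 43.78 FPKM in sham, 5.89, 18.34 and 44.15 FPKM at day 3 and 4.95, 24.44 and 43.7 FPKM at day 7. The copies' sum did not separate the groups, and it was low in the first, intermediate in the second and high in the third library of each group. Gene and copies together stood at 57.65, 77.54 and 65.69 FPKM in sham, 121.77, 148.36 and 169.74 FPKM at day 3 and 90.13, 114.91 and 111.6 FPKM at day 7, and on this sum the rise was 1.12 at day 3 and 0.65 at day 7 (adjusted p = 0.0206).

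The copy that held the reads differed between libraries. Gm12435 (chr4:48344215-48345230, minus strand, 99.5% identical) stood at 0.87, 17.66 and 10.45 FPKM in sham, 2.13, 1.7 and 16.35 FPKM at day 3 and 1.03, 20.49 and 40.21 FPKM at day 7. Gm6430 (chr1:97024681-97025928, plus strand, 99.3% identical) stood at 0.26, 0.43 and 21.6 FPKM, then 0.77, 11.27 and 24.25 FPKM, and then 0.61, 0.68 and 0.74 FPKM in the same order. Neither copy separated the groups. The order of the copies' sums by library number was noticed in the values, and the labels do not say that a number marks a shared day or animal.

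**Figure D3:**
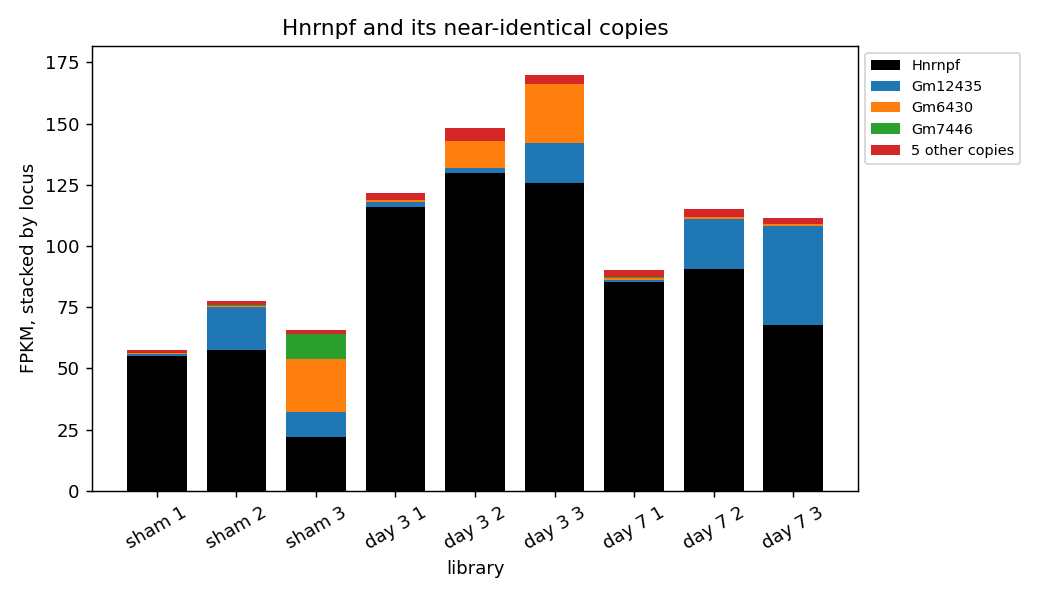
FPKM of Hnrnpf and of its near-identical copies in each of the 9 libraries, stacked by locus. The copies hold 2.65 to 5.89 FPKM in the first library of each group and 43.7 to 44.15 FPKM in the third, while Hnrnpf itself (black) is higher at day 3 than in sham.

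Hnrnph1 stood at 13.48, 10.01 and 11.31 FPKM in sham, 24.35, 24.71 and 25.89 FPKM at day 3 and 17.04, 21.77 and 15.62 FPKM at day 7, and Hnrnph2 averaged 10.3, 19.1 and 17.4 FPKM. The groups of Hnrnph1 were apart in the order sham, day 7, day 3, while for Hnrnph2 both cisplatin groups lay above sham and overlapped with each other. Hnrnph1 rose by 1.05 and 0.60 at days 3 and 7 (adjusted p = 0.000358 and 0.0173) and Hnrnph2 by 0.82 and 0.70 (adjusted p = 0.000323 and 0.00344). Hnrnph1 fell by 0.45 between the days (adjusted p = 0.0284), a call lost under each other scaling (adjusted p = 0.062 to 0.0782) and without the second or the third day 3 library or the first or the third day 7 library (adjusted p = 0.0653 to 0.107). After GC content and length trends were removed the day 7 change of Hnrnph1 was -0.03 and that of Hnrnph2 0.18 (adjusted p = 0.388). The Hnrnph1 day 7 call was also lost without the second sham (adjusted p = 0.0653) or second day 7 library (adjusted p = 0.0539). Hnrnph3 changed by 0.32 and 0.38, and neither passed (adjusted p = 0.14 and 0.125). With the replicate number as a block both passed (adjusted p = 0.0444 and 0.0438). After GC content and length trends were removed its changes were 0.17 and 0.11 (adjusted p = 0.412 and 0.74).

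Hnrnpu, Hnrnpc, Hnrnpk, Hnrnpm, Hnrnpr and Hnrnpl have other roles on nuclear RNA. Hnrnpu encodes a scaffold protein that ties RNA to chromatin. It stood at 11.73, 11.39 and 11.38 FPKM in sham, 36.35, 37.53 and 34.15 FPKM at day 3 and 24.45, 29.31 and 26.7 FPKM at day 7. The sham libraries lay within 1 FPKM of each other, and the 3 groups were apart. Its changes were 1.57 at day 3 (SE 0.10, adjusted p = 9.09e-06), 1.15 at day 7 (SE 0.10, adjusted p = 0.0011) and -0.41 between the days (SE 0.10, adjusted p = 0.00757), the greatest rise of the 29 genes at day 7. The last of these calls did not pass under median-of-ratios scaling (-0.23, adjusted p = 0.0873). Cox20, a gene on the opposite strand that overlaps the Hnrnpu gene, stood at 34.13 to 42.97 FPKM in sham, below that range at day 3 (25.4 to 33.75 FPKM) and at 41.15 to 50.22 FPKM at day 7, and its part in the Hnrnpu values was not tested. After GC content and length trends were removed, the day 7 rise of Hnrnpu was 0.47 (adjusted p = 0.0335).

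Hnrnpm, whose product binds GU-rich RNA and regulates exon choice in epithelial cells, stood at 3.85, 4.8 and 6.78 FPKM in sham, 8.52, 9.32 and 10.05 FPKM at day 3 and 9.74, 10.79 and 10.97 FPKM at day 7. Both cisplatin groups lay above sham and overlapped with each other. The rise was 0.77 (SE 0.17, adjusted p = 0.00389) and 0.93 (SE 0.17, adjusted p = 0.00515). The day 3 change did not pass under median-of-ratios scaling (0.48, adjusted p = 0.0734), whereas Hnrnpm was the only gene of the 16 genes higher at day 7 whose call held under every alternative run.

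Hnrnpk encodes the poly(C)-binding hnRNP that is also a p53 cofactor, and it stood at 15.75, 18.26 and 17.25 FPKM in sham, 35.1, 32.89 and 34.64 FPKM at day 3 and 26.18, 32.5 and 25.66 FPKM at day 7. It was higher at both times, by 0.96 and 0.68 (adjusted p = 0.000176 and 0.00441), but the day 7 change was 0.30 after GC content and length trends were removed (adjusted p = 0.149). Its copies, chiefly Gm7964, stood at 17.93 to 22.24, 22.71 to 29.04 and 19.85 to 27.66 FPKM, so that gene and copies were at a similar level in sham. On the sum of Hnrnpk and its copies the changes were 0.68 at day 3 and 0.47 at day 7. Hnrnpc, which packages nascent RNA and binds runs of uridine, averaged 21.7 ± 0.77, 40.8 ± 3.82 and 28.6 ± 4.1 FPKM (SD, n = 3). It rose by 0.88 at day 3 (adjusted p = 0.000397) and fell by 0.51 between the days (adjusted p = 0.00845). Hnrnpr, the lowest of the 29 genes in sham, averaged 1.31 ± 0.01, 2.69 ± 0.19 and 2.97 ± 0.22 FPKM and was higher at both times (0.68 and 0.78, adjusted p = 0.000423 and 0.00173). Between the days its change was 0.10. Once GC content and length trends were removed, its day 7 change was 0.11 (adjusted p = 0.531) and that between the days -0.47 (adjusted p = 0.0026).

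The hnRNP L pair and the U-like pair complete the hnRNP genes. Hnrnpl, which binds CA repeats, stood at 25.16, 18.45 and 16.99 FPKM in sham, 24.49, 21.94 and 22.61 FPKM at day 3 and 14.63, 18.84 and 15.02 FPKM at day 7, and sham overlapped with both. In the main fit it passed in 1 comparison, a fall of 0.49 from day 3 to day 7 (adjusted p = 0.0287). This call was lost without any 1 of the 3 day 3 libraries or without the first or the third day 7 library (adjusted p = 0.0546 to 0.097). It was also lost under each other scaling (adjusted p = 0.0541 to 0.0584). The day 3 change of Hnrnpl, 0.20 in the main fit, passed after GC content and length trends were removed (0.44, adjusted p = 0.0394). It also passed without the first sham library (0.36, adjusted p = 0.0482). Hnrnpll, its relative known from T cells, averaged 1.67, 3.29 and 2.52 FPKM and rose by 0.69 at day 3 (adjusted p = 0.000732) and 0.40 at day 7 (adjusted p = 0.0271), but the day 7 change was -0.19 after GC content and length trends were removed. Its fall of 0.29 between the days had an adjusted p of 0.0498 and was lost in most of the fits without 1 library. Hnrnpul2 rose by 0.33 and 0.40 (adjusted p = 0.0138 and 0.014), its day 3 change was 0.01 under median-of-ratios scaling, and its day 7 call was lost without the second day 7 library (adjusted p = 0.0515) and after GC content and length trends were removed (0.24, adjusted p = 0.143). Hnrnpul1 changed by 0.20 and 0.13, neither of which passed.

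**Figure D4:**
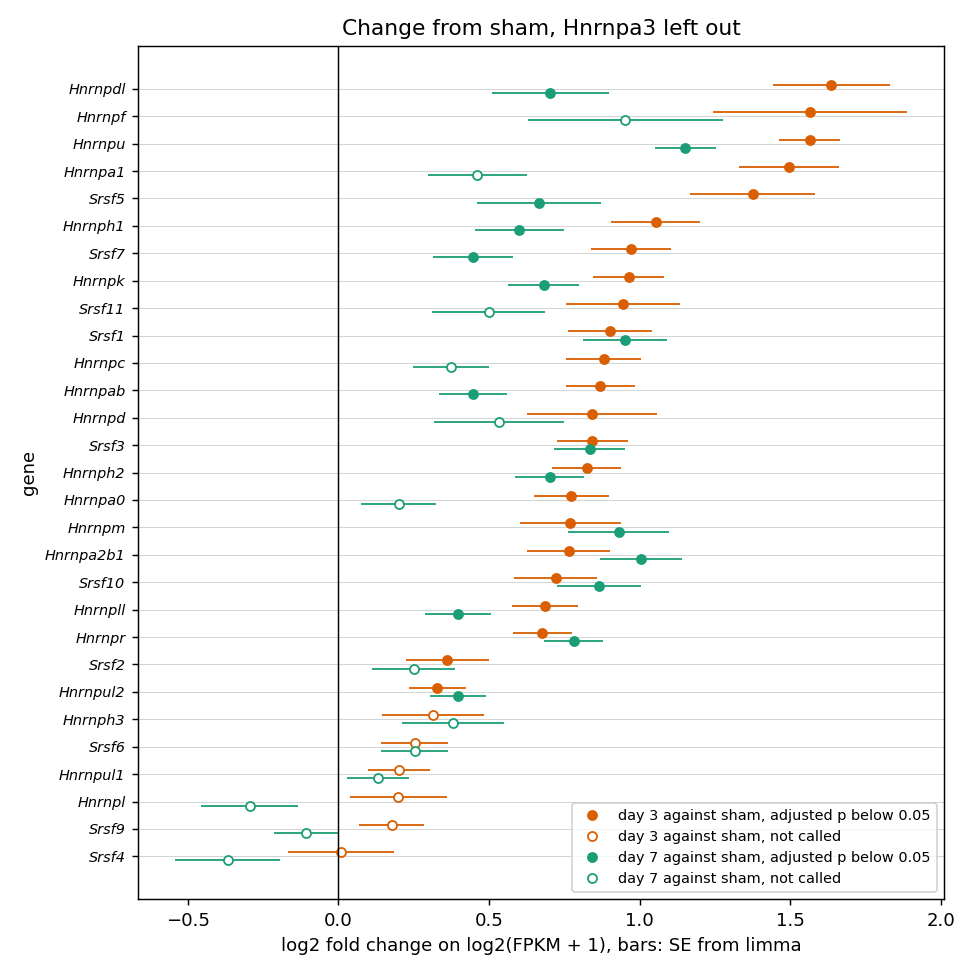
Log2 fold change against sham at day 3 and day 7 for the 29 tested genes other than Hnrnpa3, with bars for the standard error from limma, filled where the adjusted p is below 0.05 and ordered by the day 3 value. All 29 day 3 points lie above 0 and 23 are filled, and 16 day 7 points are filled.

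Among the SR genes, Srsf5 had the greatest change at day 3 and between the days. Its product is an SR protein that shuttles between nucleus and cytoplasm. It stood at 32.11, 22.15 and 17.66 FPKM in sham, 71.48, 62.42 and 53.33 FPKM at day 3 and 38.52, 40.54 and 33.78 FPKM at day 7. No groups overlapped, though the first sham library was close to day 7. It rose by 1.38 at day 3 (SE 0.21, adjusted p = 0.000528) and by 0.67 at day 7 (SE 0.21, adjusted p = 0.0409) and fell by 0.71 between the days (SE 0.21, adjusted p = 0.0178). The day 7 call was lost without the second or the third sham library, the second day 3 library or any day 7 library (adjusted p = 0.0599 to 0.116), and the change was 0.16 after GC content and length trends were removed (adjusted p = 0.699). The call between the days was lost without the first day 3 (adjusted p = 0.0537) or the third day 7 library (adjusted p = 0.0637).

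Srsf7 and Srsf3 encode small SR proteins that also link splicing to export by NXF1. Srsf7 stood at 11.15, 9.03 and 9.22 FPKM in sham, 18.94, 21.96 and 19.46 FPKM at day 3 and 12.75, 15.98 and 12.49 FPKM at day 7, with no overlap between groups. It rose by 0.97 (SE 0.13, adjusted p = 0.00031) and 0.45 (SE 0.13, adjusted p = 0.0348) and fell by 0.52 between the days (SE 0.13, adjusted p = 0.00913). The day 7 call was lost without the second or the third sham library or any 1 of the day 7 libraries (adjusted p = 0.0555 to 0.112), and the change was 0.05 after GC content and length trends were removed (adjusted p = 0.862). Srsf3 averaged 8.77 ± 1.2 FPKM in sham and 16.4 at both later times (SD 0.56 and 1.25, n = 3), and was higher by 0.84 and 0.83 (adjusted p = 0.000335 and 0.00209), but its day 7 change was 0.30 after GC content and length trends were removed (adjusted p = 0.136). Its mean was the same at both later times, and the change between the days was -0.01 (SE 0.12, adjusted p = 0.955). Copies of Srsf3, chiefly Gm9761, added 2.74 to 4.52, 10.32 to 12.5 and 7.62 to 9.08 FPKM.

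Srsf1, the gene of the founding SR protein SF2/ASF, stood at 7.31, 4.96 and 5.9 FPKM in sham, 13.07, 12.38 and 10.85 FPKM at day 3 and 13.01, 11.79 and 12.82 FPKM at day 7. Srsf10, whose product represses splicing when it is dephosphorylated, stood at 4.27, 3.07 and 3.54 FPKM in sham, 7.29, 6.18 and 6.32 FPKM at day 3 and 6.71, 8.59 and 6.95 FPKM at day 7. In both genes the cisplatin groups lay above sham and overlapped with each other. Srsf1 rose by 0.90 (SE 0.14, adjusted p = 0.000591) and 0.95 (SE 0.14, adjusted p = 0.00237) and Srsf10 by 0.72 (SE 0.14, adjusted p = 0.00197) and 0.87 (SE 0.14, adjusted p = 0.00332). Both day 7 calls were lost after GC content and length trends were removed (0.33 and 0.37, adjusted p = 0.176 and 0.12).

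The remaining SR genes were called at day 3 only or in neither comparison with sham. Srsf11, which binds near branch sites with U2AF, averaged 10.6, 20.9 and 15.1 FPKM and rose at day 3 by 0.95 (adjusted p = 0.00238). Srsf2, the exonic enhancer protein SC35, averaged 46.3 ± 7.3, 59.4 ± 5.67 and 54.8 ± 3.48 FPKM (SD, n = 3), its groups overlapped, and its day 3 change of 0.36 had an adjusted p of 0.0472 that was lost without any 1 of 7 libraries (adjusted p = 0.06 to 0.148). Srsf6 was 0.25 above sham at both times and did not pass (adjusted p = 0.0761 and 0.116), though both cisplatin groups lay above sham. Both changes passed after rescaling without mitochondrial transcripts (0.40 and 0.46, adjusted p = 0.0162 and 0.0178), and that at day 7 under quantile normalization (adjusted p = 0.0458). After GC content and length trends were removed they were -0.04 and -0.17 (adjusted p = 0.816 and 0.427). Srsf4 stood at 15.77, 13.68 and 13.06 FPKM in sham, 18.6, 13.8 and 11.12 FPKM at day 3 and 11.32, 11.24 and 9.67 FPKM at day 7, so that the day 3 libraries spanned the sham values and the day 7 libraries lay below sham. Its changes were 0.01 and -0.37 (adjusted p = 0.973 and 0.144), and the second was -0.50 and passed under median-of-ratios scaling, as did that of Hnrnpl (-0.42). Srsf9 changed by 0.18 and -0.11, which did not pass, and fell by 0.28 from day 3 to day 7 (adjusted p = 0.0485). That call was lost under each other scaling and in most of the fits without 1 library (adjusted p = 0.0515 to 0.15). It was also lost after GC content and length trends were removed (adjusted p = 0.0549).

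Of the 9 genes with a near-identical copy, 7 were Hnrnp genes (Hnrnpa1, Hnrnpa3, Hnrnpc, Hnrnpf, Hnrnph2, Hnrnpk and Hnrnpr) and 2 were Srsf genes (Srsf3 and Srsf10), with 55 copies in all. The 21 tested genes without a copy gave 15 higher at day 3, 11 higher at day 7 and 10 lower from day 3 to day 7. The shares of all tested genes were 39.3%, 19.3% and 33.7%. With every gene summed with its copies, the counts over the 29 were 23, 18 and 13, against 39.2%, 19.2% and 33.7% of all tested genes. In 16 of the 31 genes another annotated gene overlapped the locus, for 12 of them on the opposite strand.

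The start regions of the genes were read for short motifs, since many of these genes were higher together. Windows of 300 bases around RefSeq starts (GRCm38.p6) were matched for 29 of the 31 genes. The letters CCAAT, on either strand, stood in 17 of the 29 (58.6%) and in 41.1% of 27025 genes. CCGGAAG, the core of ETS sites, stood in 6 (20.7%, against 9.9%), CACGTG in 5 (17.2%, against 8.1%), GCGCATGC, part of the NRF1 site, in 3 (10.3%, against 3.0%), TGANTCA, the AP-1 site, in 1 (3.4%, against 9.0%) and TGACGTCA in 0 (against 2.0%). A gene counted if any of its listed starts matched, and the 29 genes had 41 windows. The 27025 genes were not limited to those tested in kidney, nor matched for number of starts or GC content. No test was made, and a match describes letters only. The 100 bases before the start are shown for Hnrnpa1 (chr15:103240297-103240396, plus strand) and Srsf5 (chr12:80945399-80945498, plus strand), the hnRNP and SR genes among the 5 greatest rises at day 3 with the most matches there, with CCAAT in capitals in the first and CCGGAAG or its reverse complement in the second.
Hnrnpa1: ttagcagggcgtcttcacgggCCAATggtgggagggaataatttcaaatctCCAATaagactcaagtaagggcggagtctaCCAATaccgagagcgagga
Srsf5: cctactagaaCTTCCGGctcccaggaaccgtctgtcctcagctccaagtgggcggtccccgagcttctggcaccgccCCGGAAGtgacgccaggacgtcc
Among these 5 genes, Hnrnpdl and Hnrnpu held no match in those 100 bases, with GC contents of 69.0% and 85.0%.

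Genes of related function were read in lists, to be set against the shares of all tested genes given above for the same comparisons. These were 39.3% higher and 20.6% lower at day 3, 19.3% higher and 10.4% lower at day 7, and 21.7% higher and 33.7% lower between the days. The SR-like proteins, which carry arginine and serine repeats without belonging to the SR family by name, gave 15 of 22 higher and 0 lower at day 3, with a median of 0.76, 10 higher and 1 lower at day 7, and 1 higher and 9 lower between the days. Pnn, a splicing protein of nuclear speckles, stood at 6.74 ± 1.3 FPKM in sham and 23.7 ± 1.38 at day 3 (log2 fold change 1.69, adjusted p = 2.92e-05). Son, the speckle scaffold, rose by 1.49 (adjusted p = 0.000149) and Tra2a, a splicing activator, by 1.33 (adjusted p = 4.3e-05). The kinases and import receptors of SR proteins gave 6 of 14 higher and 0 lower at day 3 and 3 and 0 at day 7. The shares higher were close to those of all genes. Prpf4b, a spliceosomal kinase of this list, went from 4.07 ± 0.20 FPKM in sham to 12.1 ± 1.27 at day 3 and 10.0 ± 1.14 at day 7 (SD, n = 3). The hnRNP proteins under other names gave 10 of 16 higher and 4 lower at day 3 (median 0.79), and 4 higher and 4 lower at day 7 (median -0.04). Ptbp3, a polypyrimidine tract protein, rose by 2.13 (adjusted p = 0.000264), and Rbm3, known as a cold-inducible protein, by 2.05 at day 3 (10.6 ± 0.31 to 47.1 ± 5.66 FPKM, adjusted p = 2.05e-05). Rbm3 then stood at 10.3 ± 2.41 FPKM at day 7, and Cirbp, the other cold-inducible protein, fell from 23.5 ± 0.85 to 3.52 ± 0.65 FPKM between the days (-2.45, adjusted p = 0.00055).

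The core spliceosome and the complexes that follow it were read in the same way. The U1, U2 and branch site list gave 12 of 21 higher and 1 lower at day 3 (median 0.37), 2 higher and 6 lower at day 7 (median -0.06), and 0 higher and 14 lower between the days (median -0.58). Snrpa1, a U2 protein, rose from 3.81 ± 0.64 FPKM in sham to 14.1 ± 1.75 at day 3 (1.65, adjusted p = 3.43e-05) and fell by 1.24 by day 7 (adjusted p = 0.000169), and Sf3a2, another U2 protein, was 1.09 lower than sham at day 7 (13.0 ± 2.15 to 5.53 ± 0.70 FPKM, adjusted p = 0.00208). The Sm and LSm ring proteins gave 8 of 16 higher and 2 lower at day 3, 1 and 2 at day 7, and 1 and 11 between the days, with medians of 0.43, -0.15 and -0.69. Snrpg, an Sm protein, rose by 1.10 at day 3 and fell by 1.39 between the days (adjusted p = 0.000339 and 0.000118). The tri-snRNP and catalytic list gave 16 of 28 higher and 0 lower at day 3 and 6 and 0 at day 7. Its share higher at day 7 was close to that of all genes. The helicase Dhx15 was higher at both times (1.09 and 1.13, adjusted p = 0.0002 and 0.00162). The exon junction and export list gave 18 of 22 higher and 0 lower at day 3 (median 0.69), 7 and 0 at day 7 (median 0.07), and 1 and 12 between the days (median -0.53). Its Magoh, a core subunit of the junction complex, went from 22.1 ± 2.42 to 51.2 ± 8.37 FPKM at day 3 (1.17, adjusted p = 0.000207), and the export helicase Ddx39b fell by 1.16 between the days (adjusted p = 0.00037). The tissue-restricted and other regulators gave 14 of 24 higher and 3 lower at day 3 and 8 and 0 at day 7. Khdrbs3, a STAR family regulator, fell at day 3 from 5.49 ± 0.87 to 1.66 ± 0.39 FPKM (-1.29, adjusted p = 0.000104) and was at 6.4 ± 0.06 FPKM at day 7 (SD, n = 3). The difference between these lists and the set was not tested.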

How the data were processed

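Whole mouse kidney RNA was sequenced in 9 libraries from 3 groups. The authors deposited FPKM per gene and library, per the file headers. HISAT, StringTie, FastQC 0.10.1 and GRCm38 are named in the submitters' processing notes with no role or order. The library kit was directional, per the labels' protocols. The alignment settings, annotation release, strand setting and treatment of reads with several matches were not given in the sources used here. The values hold no counts, so depth is unknown and no counting interval is given. The FPKM summed to 421810 to 509537 per library, with 11647 to 13183 genes at 1 FPKM or more.

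Gene IDs were matched to GENCODE M21 (55144 of 55385 had a symbol). Genes at 1 FPKM or more in at least 3 libraries were tested (13718) on log2(FPKM + 1), with a pseudocount of 1, in limma 3.58.1 (R 4.3.3), with group as the only term over all 9 libraries, eBayes with a trend, two-sided, and Benjamini-Hochberg adjustment over all tested genes at 0.05. Errors of means are SD and errors of fold changes are SE. Where the labels' repeats are not separate animals, p-values measure only the spread between these libraries. Copies were transcripts at another locus with at least 95% identity over at least 300 nt (blastn 2.17.0). The code was tested on simulated data.

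Values in every library were to be given for Hnrnpa3, its nearest relatives by name and, per comparison, up to 5 called members each way with the greatest fold change and a mean of 5 FPKM or more. No more than 3 called genes were taken from each of 8 pathway lists. The members, the lists and these rules were chosen with earlier results of these data known. Alternatives were a pseudocount of 0.1, no filter and a filter at 5 FPKM, 3 other scalings (median of ratios, quantile, without mitochondrially encoded genes), robust variance, the 6 libraries of a comparison alone, the replicate number as a block, removal of GC content and length trends (splines with 5 degrees of freedom per library), another reference for Hnrnpa3 (the median of the other members, or Hnrnpa0, Hnrnpa1 and Hnrnpa2b1) and each library left out. Summing or leaving out copies was added after seeing the data.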

Additional observations from a re-analysis of the deposited data

Results flagged for a closer look

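The changes from the shared sham libraries differed between day 3 and day 7 in the 5 genes named for that comparison, by limma's test. The differences were -1.03 for Hnrnpa1, -0.93 for Hnrnpdl, -0.71 for Srsf5, -0.57 for Hnrnpa0 and -0.52 for Srsf7 on the log2 scale. Each was lower at day 7, with no overlap between the day 3 and day 7 libraries. These genes were picked because they were called in that same test with the greatest fold changes, so the test adds no separate support. Of all tested genes, 33.7% were called lower between the days. For 39.2%, every day 7 library lay below every day 3 library. The Srsf5 difference was lost without the first day 3 or the third day 7 library, whereas the other 4 passed in every fit that left out 1 library.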

How the results depend on the processing

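The 23 genes higher at day 3 numbered 22 to 24 with 1 library left out, and 18 of them were called under every alternative run on all genes. The 16 genes higher at day 7 were 9 to 20 with 1 library left out, 25 when rescaled without mitochondrial transcripts, 5 with GC content and length trends removed and 1 when the replicate block was added to that removal. All tested genes were 19.3% higher, and 26.6%, 4.26% and 2.09% in those 3 fits. The 12 genes lower from day 3 to day 7 were 6 to 13 with 1 library left out, 6 under median-of-ratios scaling and 5 under every alternative. All tested genes were 33.7% lower, and 26.5% under that scaling. Median-of-ratios scaling gave 2 lower genes at day 7 and 3 higher genes between the days, against 17.2% and 27.6% of all tested genes. Quantile normalization gave 2 higher between the days, against 27.8%. Leaving out genes with a copy, chosen after seeing the data, gave 15 of 21 higher at day 3, against 39.3% of all tested genes. The gain of Hnrnpa3 on the other hnRNP genes was 2.24, 3.66 and 1.42 in the 3 comparisons. It was 3.90 and 5.45 against sham with a pseudocount of 0.1. With genes summed with copies, also chosen after seeing the data, it was 0.83 at day 3, 0.68 at day 7 and -0.15 between the days. With 1 library left out it was 1.36 to 2.73, 3.62 to 3.69 and 0.92 to 2.30. Removing GC content and length trends, with or without the block, turned Hnrnph1 (-0.03) and Hnrnpll (-0.19) at day 7 and Hnrnpr (-0.47) between the days. The cause was not tested, except that fewer genes are counted where some are left out. Libraries with the same replicate number had correlations of their deviations between -0.05 and 0.24, and those with different numbers between -0.28 and 0.115. The labels do not say what the numbers mark, so they were not taken as pairs in the main fit. With the replicate block 24, 17 and 11 genes were called, against 39.0%, 18.1% and 33.6% of all tested genes. Depth is unknown, so what it limits cannot be given.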
